A study of Mus musculus with 4 samples.

Results

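The chromobox genes described here are Cbx1, Cbx3 and Cbx5, which encode the heterochromatin proteins HP1, and Cbx2, Cbx6, Cbx7 and Cbx8, which encode subunits of Polycomb repressive complex 1 (PRC1). A sequence was counted as theirs when it matched, over its whole length and in sense or antisense, a GENCODE M21 transcript of 1 of the 7 genes and of no other gene. This gave 5772 distinct sequences (5747 sense and 25 antisense) of the 4906138 in the list, or 0.118%. The sequences are small RNAs that came down with MILI (Piwil2), a PIWI protein of mouse male germ cells, from C57BL/6 testes taken 14 days post partum. The libraries were 2 from Tdrd9-/- mice and 2 from Tdrd9+/- mice, which lack the RNA helicase TDRD9 or keep 1 intact copy of its gene, so the controls carry the mutant allele too. The sources used here do not state how that allele was made or how many animals went into a library. The list pools the libraries, with no counts and no library labels. The genotypes were therefore not compared and no replicate error could be computed. Library depth is unknown, and a rare RNA counts as much as an abundant one.

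PIWI proteins carry piRNAs, small RNAs that guide the silencing of transposons and that usually begin with U. Before meiosis, many piRNAs of the mouse testis are cut from messenger RNAs, above all from their 3′ UTRs, by a pathway that acts on single-stranded transcripts. HP1 proteins bind the histone methylation of constitutive heterochromatin, and the Polycomb CBX proteins bind that of genes silenced by Polycomb, so both groups read repressive chromatin through a chromodomain. What is measured here is which parts of their messenger RNAs were found as MILI-bound fragments, not how much protein or messenger RNA was made.

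The sequences below show what such fragments look like. For each gene, 1 sequence is given from the 5′ end at which the list held the most sequences, written 5′ to 3′ with T for U and with the first and the tenth base in capitals, the positions that are U in primary piRNAs and A in secondary ones. Several ends tied for the most sequences in Cbx5 (3 ends), Cbx3 (3), Cbx6 (3) and Cbx7 (2), and 1 of them is shown. The 7 sequences printed here begin with U.
Cbx5: TaggattgcCtgtggaggataccttca
Cbx1: TcagaggatGatgacaaaaaagacgac
Cbx3: TcggatgtgGctgaaccgaagcgcgca
Cbx2: TctctaaacTactgtggaagcattttc
Cbx6: TtgtaggacTcctaagagcatagggtg
Cbx7: TgaacaaggGcaggatgacttctaaac
Cbx8: TctgctcgcGggacaaagcacagactt

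On mm9 the Cbx5 sequence lies at chr15:103023320-103023346 (minus strand) and those of Cbx6 and Cbx7 at chr15:79656457-79656483 and chr15:79747476-79747502 (both minus). The Cbx1 sequence lies at chr11:96668039-96668065 (plus), that of Cbx2 at chr11:118891403-118891429 (plus), that of Cbx8 at chr11:118898396-118898422 (minus) and that of Cbx3 at chr6:51420664-51420690 (plus). The sequence is in the 3′ UTR for Cbx5, Cbx2, Cbx6, Cbx7 and Cbx8, in the coding sequence for Cbx1 and in the 5′ UTR for Cbx3. The list held 9 sequences at this Cbx5 end, of 22 to 30 nt, 7 at the Cbx2 end, 6 each at the Cbx6 and Cbx7 ends, 5 at the Cbx1 end and 3 each at the Cbx3 and Cbx8 ends. Cbx5 had 2 further ends with 9 sequences each, at chr15:103026968-103026994 and chr15:103023974-103024000 (both minus), shown because they lie elsewhere in the same 3′ UTR.
Cbx5, 3078 nt after the stop codon: TgccaagctGaattcttgatctcttgc
Cbx5, 6072 nt after the stop codon: TgccaggcaGtagtagagggaattgtg

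Members of both groups ranged from among the fullest genes of the list to near its median. Cbx5 (HP1 alpha) had 3643 sense sequences, the 9th most of 21951 protein-coding genes, and made up 63.4% of the chromobox total. Cbx1 (HP1 beta) had 112 and Cbx3 (HP1 gamma) 24. Among the Polycomb genes, Cbx6 had 874, Cbx2 717, Cbx7 346 and Cbx8 31. At 100 or more sequences were 5 of the 7 members, against 24.9% of protein-coding genes, and at 1000 or more 1 member, against 1.52%. The median protein-coding gene had 19, and 72.6% had at least 1.

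Sequences that share a 5′ end are not separate observations, so distinct ends were counted and divided by the length of the longest annotated transcript. Cbx5 had 1716 ends, or 195 per kb (185.8 to 204, exact Poisson 95% interval for counting error only), above 99.9% of protein-coding genes. Cbx2 had 106 ends per kb (96.3 to 117) and Cbx6 67.3 (61.6 to 73.3). These 3 intervals do not overlap. Cbx7 had 34.7 ends per kb (30.1 to 39.7) and Cbx1 34.5 (27.4 to 42.8), whose interval spans that of Cbx7. Cbx8, at 6.42 (4.07 to 9.64), and Cbx3, at 5.47 (3.13 to 8.88), were also not distinguishable, and both lay near the protein-coding median of 5.74. At 100 or more ends per kb were 2 members, Cbx5 and Cbx2, against 1.64% of protein-coding genes.

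**Figure D1:**
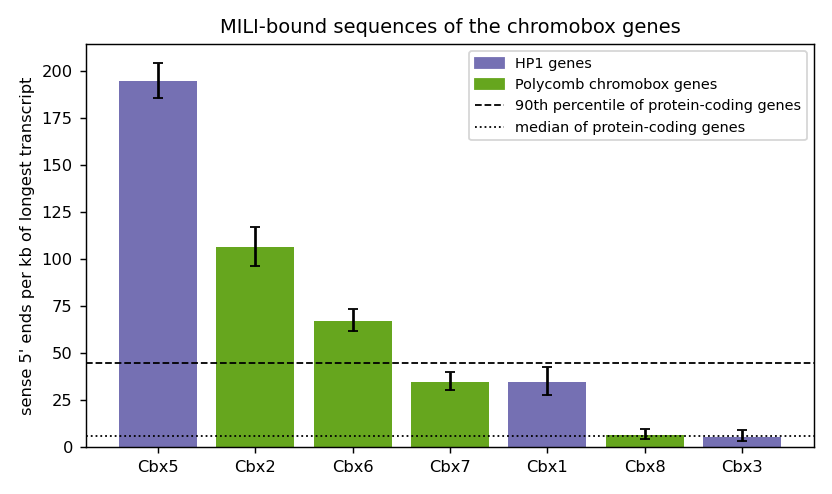
Density of distinct sense ends (per kb, over the longest transcript) in the 7 chromobox genes, with exact Poisson 95% intervals (counting error only, pooled list). Cbx5 stands at 195, Cbx2 and Cbx6 lie above the 90th percentile of protein-coding genes (dashed, 44.6), Cbx7 and Cbx1 below it, and Cbx8 and Cbx3 near the median (dotted, 5.74).

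The longest transcript of Cbx1, Cbx3, Cbx6 and Cbx7 is not the one with the longest coding sequence, and in Cbx3 it held 0 of the 16 ends. On the transcript with the longest coding sequence, counting only ends found in it, the densities were 195 per kb for Cbx5, 105.3 for Cbx2, 79.1 for Cbx6, 48.1 for Cbx7, 40.8 for Cbx1, 6.88 for Cbx3 and 6.42 for Cbx8. The order of the first 5 was the same, and Cbx3 and Cbx8 changed places. Next to Cbx5 in the order of all protein-coding genes stood Hist1h2ba (198 ends per kb) and Hif1an (198) above, and Bmf (191) and Uqcrh (189.8) below. Hif1an and Bmf resembled Cbx5 in having most of their ends in the 3′ UTR (1075 of 1225 and 773 of 885), whereas Hist1h2ba, a histone gene, had 76 of 76 in coding sequence.

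Cbx5 was covered with ends almost from one end of its messenger RNA to the other. Its annotated transcript of 8803 nt has 576 nt of coding sequence and a 3′ UTR of 8097 nt. The 3′ UTR held 1610 of the 1714 ends on this transcript (93.9%) on 92.0% of its length. Density was 199 ends per kb in the 3′ UTR, 149 in the coding sequence and 138 in the 130-nt 5′ UTR. The ratio of 3′ UTR to coding density was 1.33 (exact 95% interval 1.07 to 1.67), beside 1.31 for all protein-coding genes pooled. Almost no listed sequence crosses an exon junction, so positions just before a junction could rarely count. The Cbx5 coding sequence has such junctions and its 3′ UTR has none, which lowers the coding density. The region ratios given here and their intervals do not allow for this, and whether that of Cbx5 stays above 1 without these positions was not tested. Of the windows of 100 nt, the last, 8701 to 8800, was the only empty one, and the median window held 19 ends.

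The 3′ UTR of Cbx5 was not evenly covered. Its first part was thin: the 13 windows from position 701 to 2000, bounds chosen after the values were seen, held 81 ends in all, between 1 and 19 each. Up to position 3660, where a shorter annotated transcript of 3661 nt ends, the 3′ UTR had 151 ends per kb. Beyond that position, in 5143 nt that the shorter transcript lacks, it had 226 per kb. The fullest window was 4801 to 4900, where 53 of 100 positions began a sequence, followed by 6701 to 6800 with 49. The longest stretch without an end ran from 1732 to 1861 (130 nt).

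**Figure D2:**
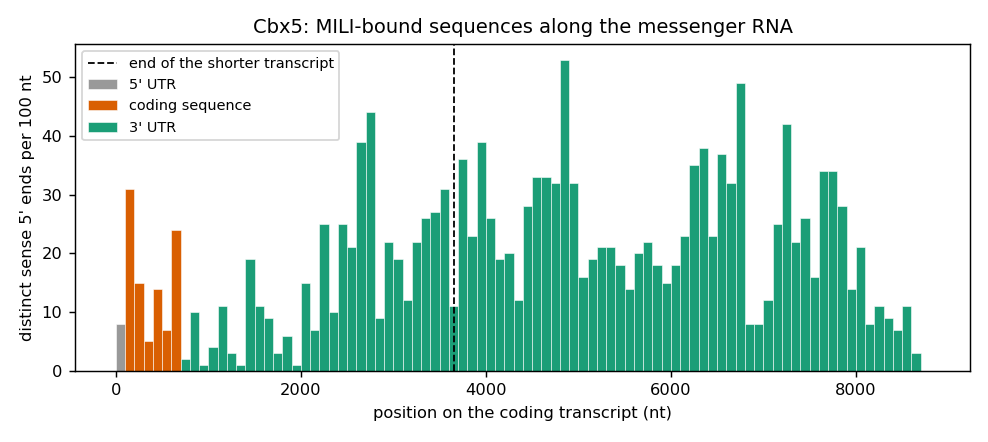
Distinct sense 5′ ends per 100-nt window along the 8803-nt Cbx5 transcript (pooled list, no replicate error). Windows are coloured by region. The windows just after the coding sequence hold few ends, the fullest window holds 53, and the 3′ UTR beyond the end of the shorter transcript (dashed line) is denser than the part before it.

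Exons of Cbx5 were found and introns nearly were not. On mm9 the 3643 sequences lay between 103022056 and 103070218 of chromosome 15, all on the minus strand of the gene. In this span, 39 other sequences lay on the same strand and matched no transcript in sense. Their 37 ends over the remaining 39360 nt come to 0.940 per kb, against 195 per kb of transcript. By exon, density was 83.3 ends per kb in exon 1, 240 in exon 2, 48.1 in exon 3, 168 in exon 4 and 198 in the last exon. Each listed sequence spans 1 unbroken genome interval of its own length, and 4 Cbx5 sequences reached over an exon junction, by 1 nt at most.

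Cbx5 ends carried more sequences each than those of most genes. It had 2.12 sequences per end, above 99.3% of the 3960 protein-coding genes with 100 or more ends, whose median was 1.51. Ends with a single sequence made up 45.7% in Cbx5, against 74.2% in the whole list. The figures for Cbx2, Cbx6 and Cbx7 were 1.77, 1.66 and 1.65 sequences per end. Cbx5 sequences had a mean length of 27.004 nt (SD 1.53 over sequences) and 69.8% at 26 to 28 nt, against a mean of 27.1 nt and 77.0% in the whole list. That share was also below the list in Cbx8 (67.7%), Cbx6 (72.2%), Cbx2 (73.6%), Cbx7 (74.0%) and Cbx1 (75%), and above it in Cbx3 (87.5%). Each length at an end counts once, so the share is tied to the number of sequences per end. The preparation cut RNAs near these sizes out of a gel, which limits the lengths that could be seen.

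A 5′ U was carried by 58.7% of Cbx5 ends (56.3 to 61.03%, exact Clopper-Pearson 95% interval, as for all shares here), 52.1% of Cbx2 ends (47.1 to 57.1%), 62.1% of Cbx6 ends (57.8 to 66.3%) and 62.9% of Cbx7 ends (55.9 to 69.4%). Cbx1 stood at 56.1% (44.7 to 67.05%), Cbx8 at 52.2% (30.6 to 73.2%) and Cbx3 at 8 of 16 ends (24.7 to 75.3%), with wide intervals from few ends. All protein-coding ends together stood at 63.0%. These shares are set against the U content of each messenger RNA, which is 31.5% in Cbx5, 21.1% in Cbx2, 22.5% in Cbx6 and 21.8% in Cbx7. Counted over the longest transcript, the ratio of 5′ U to transcript U was 1.86 for Cbx5, below all but 3.28% of genes with 100 or more ends. It was 2.47 for Cbx2, 2.56 for Cbx6 and 2.77 for Cbx7, within the 1.95 to 3.21 that hold the middle 90% of these genes (median 2.50). The largest value that this ratio can take falls as U content rises, and the ranking does not allow for this. Each distinct end counts once, and counting each distinct sequence instead gave 67.6% for Cbx5.

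Seen from the transcript, U was the base at which sequences began most often in each chromobox gene with 100 or more ends. In Cbx5, 36.7% of the U positions with at least 24 nt left in their exon began a listed sequence (34.9 to 38.6%). The share was 13.9% of A positions, 11.4% of C and 10.04% of G. Cbx2 had 26.8% of U positions and 4.76 to 9.31% of the others, Cbx6 21.4% and 3.06 to 6.23%, and Cbx7 13.5% and 2.41 to 2.72%. In all 4 genes the interval for U lay above those for A, C and G.

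**Figure D3:**
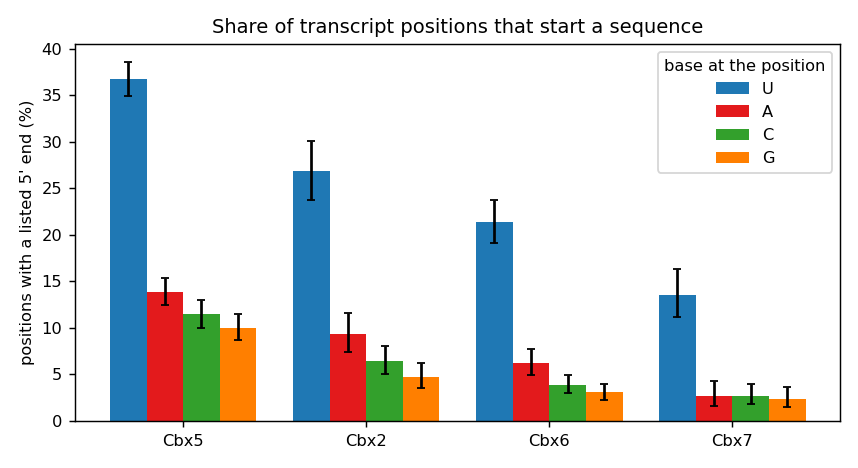
Share of transcript positions, by base, at which a listed sense sequence begins, in the 4 chromobox genes with 100 or more ends (bars, with exact 95% intervals for counting error only). The bar for U is the highest in each gene, from 36.7% in Cbx5 to 13.5% in Cbx7.

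The coding sequence and the 3′ UTR differ in base content. In Cbx5 and Cbx2 the 5′ U share was higher in the 3′ UTR, the region richer in U. In Cbx5, 41.9% of coding ends (31.3 to 53.0%) and 59.8% of 3′ UTR ends (57.3 to 62.2%) began with U, where U made up 19.97% and 32.5% of the region. Per U position the intervals of the regions overlap: 38.3% of coding U positions (28.5 to 48.9%) and 36.7% of 3′ UTR U positions (34.8 to 38.6%) began a sequence. In Cbx2, 36.7% of coding ends and 66.8% of 3′ UTR ends began with U, on 14.3% and 26.9% U. Cbx6 had 50.9% and 62.7% on 17.03% and 25.1% U.

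Ends with more sequences began with U more often. In Cbx5, U stood first at 47.8% of ends with 1 sequence (44.3 to 51.4%), 60.6% of ends with 2 to 3 (56.8 to 64.4%) and 85.04% of the 274 ends with 4 or more (80.3 to 89.04%). The same order held in Cbx2 (42.4%, 63.03% and 78.05%), Cbx6 (54.2%, 69.9% and 95%) and Cbx7 (53.8%, 73.8% and 100%, the last from 13 ends). The number of sequences at an end is the only trace of abundance in the list. It counts length variants, not reads.

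**Figure D4:**
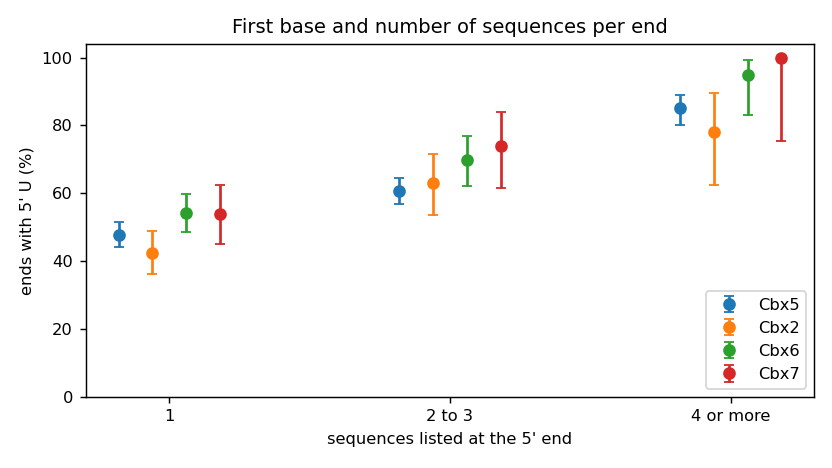
Share of 5′ ends that begin with U, by the number of distinct sequences listed at the end, for Cbx5, Cbx2, Cbx6 and Cbx7 (points, with exact 95% intervals for counting error only). In Cbx5 the share was 47.8% at ends with 1 sequence and 85.04% at ends with 4 or more.

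Other marks of piRNA processing were compared between the genes. On the Cbx5 transcript, A stood at position 10 of 29.9% of ends, beside 26.7 to 29.8% at positions 11 to 20 and 32.4% at position 5, so position 10 did not stand out. On the Cbx2 transcript it was 30.4% at position 10, above the 22.7 to 28.2% at positions 11 to 20, but below the 31.7% at position 6. Cbx7 had 32.5% at position 10, against 23.9 to 30.7% at positions 11 to 20 and 34.97% at position 8. Cbx6 had 21.1%, below the 21.8 to 27.2% of those positions. The share over all ends was 29.8% in Cbx5, 30.4% in Cbx2, 30.5% in both Cbx7 and Cbx1 and 22.3% in Cbx6 (18.9 to 26.1%), beside 30.3% for all protein-coding ends. At ends with 2 or more sequences that of Cbx1 was 18.2%. Counted from every position with at least 24 nt left in its exon, the tenth base is A in 25.7% of cases in Cbx5, 21.2% in Cbx2 and 20.6% in Cbx7, and the intervals of these 3 genes lay higher (27.7 to 32.1%, 25.9 to 35.1% and 24.3 to 37.2%). In Cbx6 it is A in 20.7% of cases, which lies within the interval of that gene. U was the base just after the 3′ end for 31.4% of Cbx5 sequence ends (29.5 to 33.4%), close to the 31.5% U of the transcript. Cbx2 (22.9%), Cbx6 (22.6%) and Cbx7 (19.7%) were also near their own transcript U. Cleavage in steps would leave a 5′ end at the base following a 3′ end, which occurred 513 times in Cbx5, against a mean of 489 for distances of 2 to 20 nt, a ratio of 1.05. The ratio was 1.02 in Cbx2, 0.976 in Cbx6 and 0.792 in Cbx7, the last from 13 occurrences. Each position was counted once and 3′ ends may be trimmed, which limits what this comparison can show.

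Among the HP1 genes, Cbx1 and Cbx3 differed from Cbx5 in where their few ends lay. In Cbx1, 37 of the 51 ends on the transcript of 1251 nt were in the coding sequence (66.3 per kb), 11 in the 5′ UTR (47.4 per kb) and 3 in the 461-nt 3′ UTR (6.51 per kb). The ratio of 3′ UTR to coding density was 0.0981 (0.0194 to 0.310), and its interval does not overlap that of Cbx5. A further 31 Cbx1 ends lay on other annotated transcripts, 25 of them on that of 2377 nt. The listed sense sequences of Cbx1 lie on chromosome 11 (96650484 to 96669945, plus strand).

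Cbx3 had 13 ends on its coding transcript of 1889 nt, 8 in the 5′ UTR, 5 in the coding sequence and 0 in 1098 nt of 3′ UTR. They fell in 2 of the 6 exons. Cbx3 has many processed copies in the mouse genome: 90.4% of its coding 27-mers (stretches of 27 nt) and 34.0% of those of the whole transcript also occur in a transcript of another gene. Of the genes that share any, 24 are annotated pseudogenes. In the coding positions with no such copy, density was 75.5 ends per kb, which rests on a few positions. The stretch from 148 to 601 had no end and was 96.3% copied, whereas the 3′ UTR, without an end, was 5.50% copied in these transcripts. A sequence that matches another gene was not counted for Cbx3, but counting such sequences left its sense total at 24. The list thus held no sense sequence shared between Cbx3 and another gene. How the authors treated reads with several genome matches is not stated. The part of copies in the low count of Cbx3 was not tested. In Cbx5 1.23% of 27-mers were copied, in Cbx1 5.39% and in Cbx2 0.

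Cbx2, whose loss in mice is known to disturb gonad development, was the densest of the Polycomb members. Its listed sense sequences lie on chromosome 11 (118884464 to 118892563, plus strand). Its transcript of 3807 nt had 196 ends in coding sequence (126 per kb), 205 in the 3′ UTR (97.6 per kb) and 0 in the 147-nt 5′ UTR. The ratio of 3′ UTR to coding density was 0.777 (0.636 to 0.9499), below 1 and not overlapping the interval of Cbx5. The fullest window, 2901 to 3000, held 27 ends. Within the gene, 77 sequences on its strand matched no transcript in sense, 13.3 ends per kb of the remaining 4293 nt, where Cbx5 had 0.940.

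Cbx6 had its ends in the second part of its coding sequence and throughout the 3′ UTR. Its listed sense sequences lie on chromosome 15 (79654448 to 79665054, minus strand), and 457 of the 459 ends on its transcript of 5806 nt lay in the last exon. From position 447 to 987 there was no end. This stretch is 99.1% copied in other genes, almost all of it in Npcd, also on chromosome 15, and 110 further sequences matched both genes and were not counted as Cbx6. Coding density was 85.1 ends per kb and 3′ UTR density 85.9, a ratio of 1.01 (0.810 to 1.27). With the sequences shared with other genes counted, the ratio was 0.665, and over positions with no copy in another gene it was 0.606. The direction for Cbx6 thus depends on how the Npcd overlap is treated. A further 69 ends lay on a transcript of 7850 nt that keeps an intron.

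Cbx7 had the highest ratio of 3′ UTR to coding density of the 7. On its transcript of 3388 nt, 141 ends lay in the 3′ UTR (56.2 per kb) and 22 in coding sequence (29.1 per kb), a ratio of 1.93 (1.23 to 3.18). The intervals of Cbx7 and Cbx5 overlap. Its 5′ UTR of 123 nt held 0. The listed sense sequences of Cbx7 lie on chromosome 15 (79746310 to 79801544, minus strand). Of its 47 ends off the coding transcript, 41 lay on a transcript of 6057 nt that keeps an intron.

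Cbx8 stood at the other extreme of the Polycomb members. It neighbours Cbx2 on chromosome 11 and points toward it, and its listed sense sequences lie between 118898395 and 118902173 on the minus strand. Of its 23 ends, 18 were in coding sequence (16.5 per kb) and 4 in the 2372-nt 3′ UTR (1.69 per kb), a ratio of 0.102 (0.0251 to 0.310). The last 803 nt of the transcript held no sense end. Cbx8 and Cbx1, on either side of the HP1 and Polycomb division, were therefore alike in a 3′ UTR with few ends.

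**Figure D5:**
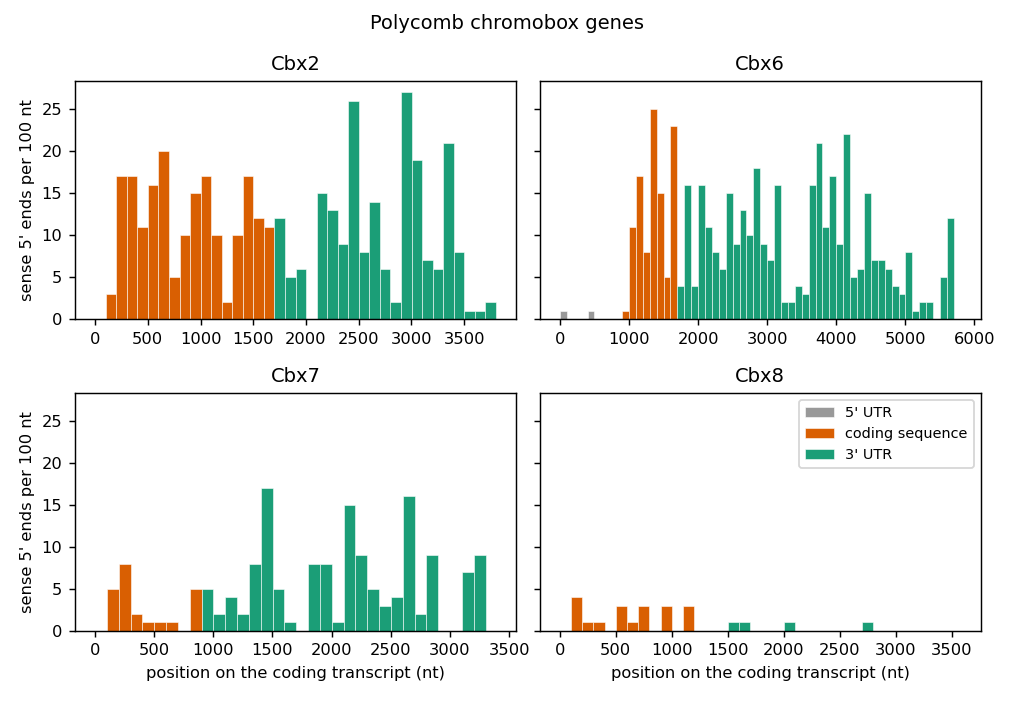
Distinct sense 5′ ends per 100-nt window along the coding transcripts of Cbx2, Cbx6, Cbx7 and Cbx8, on a common vertical scale and coloured by region (pooled list, no replicate error). The fullest windows hold 27 ends in Cbx2, 25 in Cbx6, 17 in Cbx7 and 4 in Cbx8. The gap in Cbx6 that ends at position 987 includes the stretch shared with Npcd.

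Antisense sequences were few beside the sense ones. The 7 genes had 25 antisense sequences, or 0.435 for every 100 sense ones, against 4.98 per 100 over all protein-coding genes. This ratio depends on the sense count, of which Cbx5 alone made up 63.4%. It does not show that these genes had fewer antisense sequences than other genes. Cbx5 and Cbx6 had 0, Cbx1 and Cbx2 1 each, Cbx3 2, Cbx8 6 and Cbx7 15. At least 1 was thus found in 5 of 7 members, against 44.3% of protein-coding genes. Of the 25, 20 began with U and 10 had A at position 10. The Cbx2 sequence is shown because it has both marks and lies within the coding sequence, at chr11:118889530-118889554 on the minus strand.
Cbx2 antisense: TgccaccggAgcgctgagtggaggg

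All 15 of Cbx7 lay outside its coding transcript, in stretches that other annotated transcripts of the gene hold. The 6 of Cbx8 lay on the plus strand, 5 of them opposite its 3′ UTR. Slicing by a PIWI protein leaves opposite-strand partners that overlap by 10 nt. None of the 2980 sense ends of the 7 genes had such a partner, which allows a share of up to 0.124% by the exact 95% interval (0.101% by the limit of 3 ends), against 0.289% of all protein-coding ends (0.280 to 0.298%). Other overlaps of 1 to 20 nt were present for 0.0159% of chromobox ends on average and 0.211% of protein-coding ends. Opposite-strand ends that overlap the sense ends were thus scarce at each of these distances. Opposite-strand sequences were nonetheless listed within the Cbx7 gene, most of them outside its annotated transcripts. From 79746310 to 79761058 of chromosome 15, the list held 250 plus-strand sequences beside 331 sense sequences of Cbx7. Of the 250, 247 matched no transcript in either orientation. Over the whole span of listed Cbx7 sequences there were 6 opposite-strand pairs with a 10-nt overlap. The stretch upstream of exon 2 alone had 6, so these 250 sequences do not show overlapping ends within the gene.

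Genes whose proteins act with HP1 or in the Polycomb complexes were described from 3 lists. Of 24 HP1 partner genes, 17 had 100 or more sequences, against 24.9% of protein-coding genes, with a median of 28.5 ends per kb against 5.74. Trim28, the corepressor that recruits HP1 to transposons, had 52.7 ends per kb (259 sequences), the H3.3 chaperone gene Daxx 50.1 and Ahdc1 48.6, whereas Adnp had 5.27. Of 17 PRC1 genes, 9 reached 100 sequences, with a median of 18.2. Phc3 led with 44.0 ends per kb (799 sequences), followed by Pcgf5 with 41.3 and Scmh1 with 29.9, and Pcgf1 was lowest with 4.36. Of 12 PRC2 genes, 8 reached 100, with a median of 25.4. Mtf2 had 34.2, Epop 34.1, the methyltransferase gene Ezh1 31.9 and Phf19 1.87. None of these 53 genes reached 100 ends per kb, a level that 1.64% of protein-coding genes reached, so none among 53 is near that share. Of the 53, 49 lay above the protein-coding median.

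Germ cell markers were well represented in the list and most somatic markers were not. All 8 germ cell genes had 100 or more sequences (median 57.1 ends per kb, from 21.01 in Tdrd1 to 74.3 in Stra8). Of 8 Sertoli cell genes 0 had 100, and Fshr and Rhox5 had 0 sequences. Of 6 Leydig cell genes, Star had 247 and 4 had 0. The list holds RNAs that came down with MILI, a protein of male germ cells, and not the total RNA of the testis. Selection by MILI, fewer cells of a type and less RNA per cell cannot be told apart here. Which cells the chromobox fragments came from was not tested.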

How the data were processed

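The authors deposited 1 list for all 4 libraries, which holds, per the file headers, a small RNA sequence and its chromosome, strand, first and last base. The build is mm9 (submitters' processing notes), counted from 1. Aligner, filters and pooling: not given in the sources used here. No sequence was listed again among the 4906138. The planned count test between genotypes could not be run, since there are no counts. Sequences were matched exactly to 141767 GENCODE M21 transcripts (built on GRCm38, used for sequence and names only). Matching recovered planted sequences when tested on simulated data. Regions follow the transcript with the longest coding sequence, stop codon included. Copies were sought in transcripts in place of a genome. Intervals cover counting error over distinct ends, which are not independent molecules. Named genes are the 7 members, the 3 densest and the lowest of each list, and 2 neighbours of Cbx5 on each side. Members and lists were chosen with earlier results of these data known. Alternatives changed lengths, transcripts, shared sequences, copies and the unit counted. Tools were numba 0.67.0, scipy 1.17.1, matplotlib 3.10.9, pandas 2.3.3 and numpy 2.4.6 under Python 3.11.15.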

Additional observations from a re-analysis of the deposited data

How the results depend on the processing

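Of 133 values recomputed under an alternative, 113 stayed and 20 moved, where a count or density had to stay within 1.5 times the value reported and a share or ratio within its 95% interval. Counting distinct 5′ ends in place of sequences gave 1716 for Cbx5 and 2980 for all 7 genes. The 5′ U share of Cbx5 was 67.6% per distinct sequence and 67.8% at ends with 2 or more sequences. The same alternatives raised the share in Cbx2, Cbx6 and Cbx7. Densities of Cbx1, Cbx7 and Cbx3 were 65.5, 62.0 and 8.47 ends per kb when all ends of the gene are divided by the length of the transcript with the longest coding sequence. Alternatives on copies in other genes, and on shared sequences for the region ratio, were chosen after seeing the data. They moved the region ratio of Cbx6 as given above. Over positions of the coding transcript with no copy, the density of Cbx3 was 9.76 per kb. It was 5.47 over the longest transcript and 6.88 over the whole coding transcript, so this move includes a change of transcript. Limiting lengths to 24 to 31 nt moved no value by that much. No paired analysis was possible because the list carries no library labels, and for the same reason no replicate could be left out. The planned check against a genome was not run, as no genome was used here. The share of Cbx1 ends with A at position 10 was 18.2% at ends with 2 or more sequences. The densities of Cbx8 and Cbx3 rest on 23 and 16 ends.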

Other observations

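Plus-strand sequences continued past the annotated end of Cbx2 toward Cbx8. In the 5 kb after the last listed Cbx2 sequence (chr11:118892564-118897563 on mm9) there were 206 plus-strand sequences at 136 ends (27.2 per kb) that matched no transcript in sense, and 4 minus-strand sequences. Per kb, going away from Cbx2, they numbered 35, 55, 39, 48 and 29. The 4 in the next kb and the 1 after it are antisense sequences of Cbx8 given above. Of the 136 ends, 79.4% began with U (71.6 to 85.9%). The nearest listed sense sequence of Cbx8 lies 5831 nt beyond the last of Cbx2. Whether these sequences belong to a longer Cbx2 transcript was not tested. After the last listed Cbx5 sequence, 50 further minus-strand sequences lay in the first kb and 15 in the second, then 4.

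Upstream of the last listed base in exon 2 of Cbx7 (chr15:79761059-79801544), a stretch that also takes in exon 1 of the coding transcript, in which no sense end was listed, the list held 459 minus-strand and 598 plus-strand sequences, of which 15 were sense and 12 antisense to Cbx7. Ends began with U in 77.4% of minus-strand and 73.5% of plus-strand cases. There were 6 opposite-strand pairs with a 10-nt overlap, beside a mean of 3.79 and a maximum of 7 at the other overlaps of 1 to 20 nt.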
